A study of Homo sapiens with 12 samples.

Results

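The enzymes of pyrimidine metabolism were described here in 2 breast cancer cell lines with and without the hyaluronan receptor CD44. A list of 10 genes was examined, namely DPYD, TYMP, TYMS, UPP1, UCK2, UMPS, DHODH, CDA, DUT and DCK. All 10 were found among the 58381 genes of the count table, and all 10 were among the 15836 genes that passed the filter on low counts (a level of over 1 CPM, counts scaled to library size, in 2 or more libraries, with 300 nt or more of exon). DPYD was put on the list because of its rise in Hs578T cells without CD44, so its values in that contrast, and every comparison that uses them, are a description and carry no test.

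RNA sequencing covered 12 libraries, 3 in each of 4 groups. Hs578T and MDA-MB-231 are human breast cancer lines of the triple negative class, grown here in low serum before the RNA was taken. In the CD44 KO groups, guide RNAs to exons 1 and 5 of CD44 were transfected into cells that carried doxycycline-inducible Cas9, and the cells left without surface CD44 were sorted as a population, not as clones. The CD44 WT groups had the same Cas9 lentivirus and the same puromycin selection, but received transfection reagent alone. Both arms were sorted as live CD29+ cells, the CD44 WT groups as CD44+ and the CD44 KO groups as CD44-.

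CD44 itself, the targeted gene, lay at 494 to 527 CPM in Hs578T CD44 WT and at 24.9 to 28.6 CPM in Hs578T CD44 KO, and in MDA-MB-231 at 360 to 363 CPM with CD44 and 30.0 to 40.3 CPM without it. Library totals ran from 10257586 to 19725543 counted fragments. Of the receptor genes that define the triple negative class, PGR was at 0 in every library and ESR1 averaged at most 0.928 CPM in any group, whereas ERBB2 averaged 61.9 to 94.5 CPM. All 5 mesenchymal markers listed were above 1 CPM in Hs578T and 3 of 5 in MDA-MB-231, and of 5 epithelial markers 2 were in Hs578T and 4 in MDA-MB-231. Whether each library had a culture of its own is not stated in the labels, so the p-values measure only the spread between these libraries. The paper describes no repeat of the editing within a line. Loss of CD44 therefore cannot be told apart from other differences that arose as the cells were edited, sorted and expanded. Replicate 1 of MDA-MB-231 CD44 WT stood apart from the other 2 libraries of its group, with a chi-square per degree of freedom of 21.4 and 32.6 against them, whereas those 2 gave 6.14 against each other. Replicate 1 of MDA-MB-231 CD44 KO gave 12.9 and 16.1 against the other 2 libraries of its group, which gave 6.22. Replicate 3 of Hs578T CD44 WT likewise gave 15.1 and 9.87 against the other 2 libraries of its group, which gave 4.68. In Hs578T CD44 KO, replicates 1 and 3 gave 6.35 against each other, and each pair with replicate 2 gave 7.45 or more. DPYD and DCK were among the genes that were lower in replicate 1 of MDA-MB-231 CD44 WT, and their changes are given with and without it.

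Cells obtain pyrimidine nucleotides by building them from small precursors or by salvaging nucleosides, and they dispose of surplus bases by reduction. Dihydropyrimidine dehydrogenase, the product of DPYD, carries out the first and rate-limiting step of that breakdown for uracil and thymine, and it is also the main enzyme that inactivates the drug 5-fluorouracil. Several of the other enzymes activate or are the target of the same drug family: thymidine phosphorylase, uridine phosphorylase and uridine-cytidine kinase lead towards active nucleotides, and thymidylate synthase is blocked by them.

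The promoter of DPYD is shown first because this gene ranged from near absence to a high level over the 4 groups, and that of UCK2 is shown beside it because all UCK2 values in the knockout libraries lay below those of the control libraries in both lines. Each line gives the 250 bases before the start site from RefSeq on GRCh38.p14, 5′ to 3′ on the strand of the gene, at chr1:97921035-97921284 (minus strand) for DPYD and at chr1:165827364-165827613 (plus strand) for UCK2. Capitals mark the letters GGGCGG (the SP1 box) and CCAAT on either strand.
DPYD: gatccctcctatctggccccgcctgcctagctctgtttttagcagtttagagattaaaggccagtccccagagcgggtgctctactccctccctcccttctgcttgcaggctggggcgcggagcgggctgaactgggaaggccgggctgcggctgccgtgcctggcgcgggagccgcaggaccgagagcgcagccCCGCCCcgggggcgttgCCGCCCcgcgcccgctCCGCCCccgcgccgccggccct
UCK2: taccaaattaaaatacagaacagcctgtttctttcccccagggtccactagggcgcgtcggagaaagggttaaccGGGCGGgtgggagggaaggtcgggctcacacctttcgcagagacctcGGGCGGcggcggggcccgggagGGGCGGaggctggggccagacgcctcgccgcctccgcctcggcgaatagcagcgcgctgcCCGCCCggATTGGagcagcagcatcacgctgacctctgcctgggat

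The DPYD window held 3 matches to GGGCGG and 25 CG dinucleotides at a GC content of 72.4%, and the UCK2 window held 4 matches, 1 match to CCAAT and 24 CG dinucleotides at 66.8%. Over all 35116 promoter windows of this length in the RefSeq table, 42.6% held GGGCGG, 32.0% held CCAAT, 10.7% held TATAAA (the TATA box) and 6.60% held TTNGCGC (an E2F-type match), and the median was 11 CG dinucleotides. All 10 genes had at least 1 window in the table, 17 in all. In at least 1 of a gene's windows, GGGCGG was found for 7 of the 10, CCAAT for 3 (TYMP, DHODH and UCK2), TATAAA for 0 and TTNGCGC for 1 (DUT). These are counts of genes, some with several windows, and are not on the same footing as the shares of single windows above. CDA had the fewest CG dinucleotides of the 17 windows, 5, and TYMP the most, 40. Such matches describe the letters of the window only.

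The 10 genes were compared with each other as CPM per kilobase of exonic length. In Hs578T CD44 WT, DPYD was last of the 10 at 0.0869 ± 0.0138 CPM per kb (SD, n = 3), below TYMP at 0.584 ± 0.0695, and the ranges of these neighbours did not overlap. In Hs578T CD44 KO it was at rank 9 with 2.18 ± 0.548 CPM per kb, with a range that overlapped that of DHODH at 2.26 ± 0.185, and above TYMP at 0.481 ± 0.159. In MDA-MB-231 CD44 WT it reached rank 5 at 14.5 ± 4.09 CPM per kb, where its range overlapped those of UCK2 (16.9 ± 0.693) and DCK (11.8 ± 2.48), and in MDA-MB-231 CD44 KO rank 4 at 17.8 ± 0.386. The other 9 genes kept much of their order: TYMS was first in every group (133 to 232 CPM per kb as group means), CDA and DUT took ranks 2 and 3 in every group, and the lowest was TYMP wherever it was not DPYD. The ranges of CDA and DUT overlapped in 3 of the 4 groups, the exception being MDA-MB-231 CD44 KO. In that group the range of TYMP (1.68 ± 0.420) overlapped that of DHODH (1.86 ± 0.207), so TYMP was not set apart as the lowest.

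**Figure D1:**
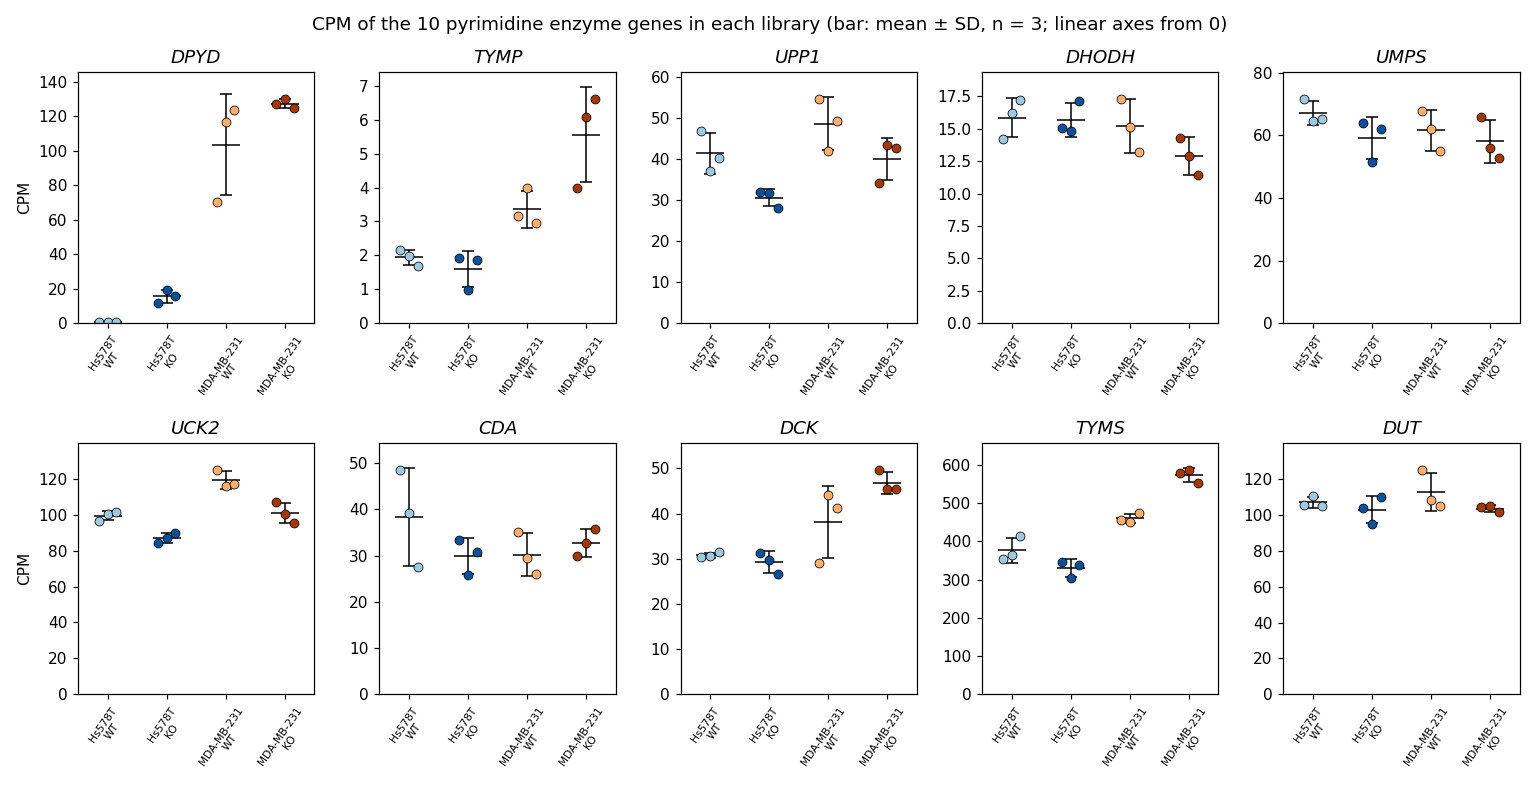
CPM of each of the 10 genes (y axis, linear from 0, a scale of its own in each panel) in the 4 groups (x axis). Points are libraries and bars are the mean ± SD of 3 libraries. DPYD climbs from below 1 CPM in Hs578T CD44 WT to over 100 CPM in MDA-MB-231, with 1 MDA-MB-231 CD44 WT library at 70.0 CPM, whereas the group means of the other 9 genes differ far less.

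DPYD (ENSG00000188641.13) spans chr1:97077743-97995000 on the minus strand of GRCh38, a gene of 917258 nt with 7131 nt of annotated exon. In Hs578T CD44 WT it was at 0.694, 0.658 and 0.508 CPM, which were 10, 8 and 6 counts. In Hs578T CD44 KO it was at 11.6, 19.4 and 15.7 CPM (144, 314 and 184 counts). The lowest knockout library lay above the highest control library. The means were 0.620 ± 0.0986 and 15.5 ± 3.91 CPM (SD, n = 3 each), a ratio of 25.1, and the fitted log2 fold change was 4.62 (standard error, SE, 0.337), rank 34 of all genes tested by size of increase. From the summed counts, 642 against 24, the ratio was 25.4 with a 95% counting interval of 16.9 to 39.96. That interval covers counting error only, and not the choice of DPYD for this rise. In these bulk libraries, more RNA per cell and more cells with the transcript cannot be told apart. Marker lists of other cell types also differed in this contrast. The 4 leukocyte markers went from a summed 1.11 to 1.48 CPM in Hs578T CD44 WT to 3.64 to 5.37 CPM in Hs578T CD44 KO. That sum was carried by PTPRC, which averaged 0.369 and 3.78 CPM and was the only marker of the list above 1 CPM in at least 2 libraries, whereas CD3E averaged 0.520 and 0.323 CPM and CD14 0.347 and 0.112 CPM. The 3 fibroblast markers summed to 31.4 to 44.6 CPM with CD44 and 23.0 to 31.0 CPM without it, with LUM averaging 2.48 and 11.2 CPM and PDGFRA 37.5 and 14.9 CPM. The 3 endothelial markers summed to 11.9 to 14.2 and 14.8 to 15.5 CPM. The part of these lists in the DPYD values was not tested.

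MDA-MB-231 expressed DPYD strongly with or without CD44. The CD44 WT libraries were at 70.0 (replicate 1), 117 (replicate 3) and 124 CPM (the library without a replicate number), and the CD44 KO libraries at 127, 130 and 125 CPM. The knockout libraries were all above the control libraries, but by less than 1 CPM between the highest control and the lowest knockout. The log2 fold change was 0.30 (SE 0.176), and the edgeR quasi-likelihood test did not pass (adjusted p = 0.332). Without replicate 1 of CD44 WT, the ratio of the means was 1.06 and the log2 fold change 0.08 (adjusted p = 0.804). Hs578T CD44 KO stayed at 15.02% of the level of MDA-MB-231 CD44 WT, which was 6.66 times that of Hs578T CD44 KO and 167 times that of Hs578T CD44 WT. The change with CD44 KO was 4.33 (SE 0.398) larger on the log2 scale in Hs578T than in MDA-MB-231, given here without a test.

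**Figure D2:**
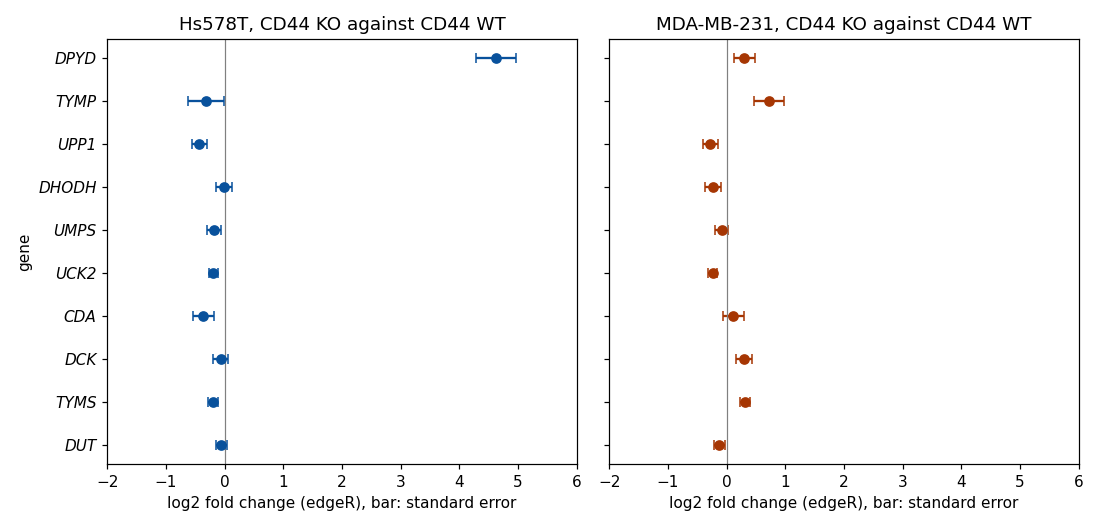
Fitted log2 fold change of CD44 KO against CD44 WT (x axis) for the 10 genes (y axis), with Hs578T on the left and MDA-MB-231 on the right. Bars are standard errors. In Hs578T DPYD lies at 4.62 and the other 9 genes between -0.43 and -0.02. In MDA-MB-231 all 10 lie between -0.28 and 0.72.

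None of the other 9 genes passed the test in either line. The threshold was an adjusted p of at most 0.01 (edgeR, Benjamini-Hochberg over all genes tested), and of all genes it called 7.51% for Hs578T and 4.62% for MDA-MB-231. At an unadjusted p under 0.05 there were 3 of 9 in Hs578T, beside 27.4% of all genes, and 5 of 9 in MDA-MB-231, beside 23.4%. DESeq2 called 0 and 1 of the 9. Of all 15836 genes it called 739 higher and 814 lower in Hs578T, and 567 and 571 in MDA-MB-231. In Hs578T all 9 fitted log2 fold changes were below 0, with a median of -0.19 against -0.00 over all genes tested, and in 4 of the 9 the groups did not overlap, beside 37.3% of all genes. These were 4 with every knockout library below every control library, beside 18.6% of all genes, and 0 with every one above, beside 18.7%. In MDA-MB-231 4 were above 0 and 5 below, with a median of -0.09 against -0.01 over all genes. There, 4 of the 9 did not overlap, beside 25.5% of all genes: 3 had every knockout library above every control library, beside 11.8% of all genes, and 1 had every one below, beside 13.7%. The difference of the changes between the lines was called for 0 of the 9 by edgeR, beside 4.12% of all genes (2.33% higher and 1.79% lower). DESeq2 called it for 1 of the 9, and for 1179 of all 15836 genes. At an unadjusted p under 0.05 there were 2 of 9, beside 24.6% of all genes.

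TYMP and UPP1 encode phosphorylases that split nucleosides into a base and a sugar phosphate, the first for thymidine and the second for uridine. TYMP (ENSG00000025708.13, chr22:50525752-50530056, minus strand) was low everywhere. It was at 2.15, 1.97 and 1.69 CPM in Hs578T CD44 WT and 1.93, 0.986 and 1.88 CPM in Hs578T CD44 KO, which overlapped. In MDA-MB-231 it was at 3.17, 3.97 and 2.94 CPM in CD44 WT and 3.98, 6.09 and 6.62 CPM in CD44 KO, so the knockout libraries were all above the control libraries by a thin margin. The log2 fold change of 0.72 (SE 0.253) did not pass (edgeR, adjusted p = 0.0892). Neither did the difference between the lines, -1.04 (SE 0.397, adjusted p = 0.113). TYMP shares 339 exonic bases with SCO2 and 347 with ODF3B on the same strand, and fragments that fall on several genes were not counted, so those bases add nothing to its level. They are part of the exonic length behind its CPM per kilobase, which they lower.

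UPP1 (ENSG00000183696.13, chr7:48088628-48108733, plus strand) was the member nearest to the threshold in Hs578T. Its libraries there were at 46.8, 37.1 and 40.2 CPM in CD44 WT and 31.9, 31.8 and 28.1 CPM in CD44 KO, with no overlap. The log2 fold change was -0.43 (SE 0.128, adjusted p = 0.0336), and over the fits that left out 1 library each the adjusted p ran from 0.0164 to 0.175. In MDA-MB-231 the values were 54.7, 41.9 and 49.3 CPM against 34.2, 43.4 and 42.7 CPM, with overlapping ranges and a log2 fold change of -0.28 (SE 0.127, adjusted p = 0.204). The 2 changes differed by -0.16 (95% interval -0.54 to 0.22, adjusted p = 0.651).

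DHODH and UMPS act late in de novo synthesis, the first oxidising dihydroorotate in mitochondria and the second turning orotate into UMP. DHODH (ENSG00000102967.11, chr16:72008588-72027664) ranged only from 11.5 to 17.3 CPM over all 12 libraries. Its log2 fold change was -0.02 in Hs578T (95% interval -0.31 to 0.27) and -0.24 in MDA-MB-231 (95% interval -0.53 to 0.06), with overlapping groups in both lines. UMPS (ENSG00000114491.13, chr3:124730366-124749273) was at 71.7, 64.7 and 65.2 CPM in Hs578T CD44 WT and 63.9, 51.5 and 62.1 CPM in Hs578T CD44 KO. Those groups did not overlap, yet the log2 fold change of -0.19 (SE 0.114) was far from the threshold (adjusted p = 0.323). In MDA-MB-231 it was -0.09 (95% interval -0.33 to 0.16).

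UCK2, CDA and DCK belong to salvage. UCK2, the kinase that phosphorylates uridine and cytidine, was the member whose knockout libraries lay below the control libraries in both lines (ENSG00000143179.15, chr1:165827531-165911618). It was at 96.7, 100.1 and 102 CPM in Hs578T CD44 WT and 84.4, 87.1 and 89.8 CPM in Hs578T CD44 KO. In MDA-MB-231 it was at 125, 116 and 117 CPM in CD44 WT and 107, 100.3 and 95.4 CPM in CD44 KO. The groups were separate in each line. The log2 fold changes, -0.19 (SE 0.0779) and -0.24 (SE 0.0776), did not pass (edgeR, adjusted p = 0.120 and 0.0663), and they differed by 0.05 (95% interval -0.19 to 0.28).

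CDA, which deaminates cytidine, spread widely within Hs578T CD44 WT (ENSG00000158825.5, chr1:20588948-20618908). Its values were 48.5, 39.2 and 27.4 CPM there and 33.3, 25.7 and 30.9 CPM in Hs578T CD44 KO, so the lowest control library was below 2 of the knockout libraries. The log2 fold change was -0.36 (SE 0.175, adjusted p = 0.194), and the MDA-MB-231 value was 0.12 (SE 0.177, adjusted p = 0.757). The Hs578T change depended on single libraries, at -0.55 (adjusted p = 0.0226) without replicate 3 of CD44 WT and -0.16 (adjusted p = 0.680) without replicate 1 of CD44 WT. DCK, the kinase of deoxycytidine and its drug analogues, was at 30.4, 30.6 and 31.4 CPM in Hs578T CD44 WT and 31.4, 29.8 and 26.7 CPM in Hs578T CD44 KO (ENSG00000156136.9, chr4:70992538-71030914). In MDA-MB-231 it was at 29.1, 44.1 and 41.3 CPM in CD44 WT, with the low value in replicate 1, and at 49.6, 45.4 and 45.4 CPM in CD44 KO. The log2 fold change there was 0.29 (SE 0.130, adjusted p = 0.184), and 0.13 (adjusted p = 0.485) without replicate 1 of CD44 WT. DCK shares 199 exonic bases with MOB1B on the same strand.

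TYMS and DUT supply thymidylate, TYMS by methylating dUMP and DUT by making dUMP from dUTP. TYMS (ENSG00000176890.15, chr18:657604-673578) was the most abundant of the 10 per length. In Hs578T it was at 354, 363 and 415 CPM in CD44 WT and 347, 303 and 339 CPM in CD44 KO. In MDA-MB-231 it was at 456, 450 and 474 CPM in CD44 WT and 580, 586 and 552 CPM in CD44 KO. The knockout libraries were thus all below the control libraries in Hs578T and all above them in MDA-MB-231. The log2 fold changes were -0.19 (SE 0.0837, adjusted p = 0.145) and 0.32 (SE 0.0835, adjusted p = 0.0245). Their difference of -0.51 (SE 0.118) missed the threshold of 0.01 narrowly (edgeR, adjusted p = 0.0129), and it passed in 3 alternatives, with library size as the only scaling, without the filter on low counts and with DESeq2. On the opposite strand, 183 bases of TYMS exon are shared with TYMSOS and 465 with ENOSF1, and the counting was stranded.

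DUT (ENSG00000128951.13, chr15:48331011-48343373) was steady, between 95.1 and 125 CPM in all 12 libraries. Its log2 fold changes were -0.06 in Hs578T (95% interval -0.24 to 0.13) and -0.12 in MDA-MB-231 (95% interval -0.31 to 0.06). Genes of DNA replication and division are given beside these enzymes. In Hs578T all 10 listed (MCM2, MCM3, MCM5, MCM6, MCM7, PCNA, CCNE2, CCNA2, MKI67 and TOP2A) had a log2 fold change below 0, from -0.40 to -0.02. Of all 15836 genes tested, 7944 were below 0. Of the 10, 0 were called, beside 7.51% of all genes, and 5 had an unadjusted p under 0.05, beside 27.4%. Their summed level was 3075 to 3242 CPM in CD44 WT and 2746 to 2881 CPM in CD44 KO. In MDA-MB-231 the sum was 3317 to 3380 CPM in CD44 WT and 3441 to 3884 CPM in CD44 KO. There, 1 of the 10, the cyclin gene CCNA2, was called higher (log2 fold change 0.45, SE 0.0855, adjusted p = 0.00374), beside 1.97% of all genes. Their part in the values of TYMS, DUT and DCK was not tested.

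The wider pathway was described with a list of 39 other genes, of which 33 were tested. The steps that follow DPYD in breakdown were hardly seen at all: DPYS, the next enzyme, had 7 counts over the 12 libraries, UPB1 had 11, and AGXT2 had 0. A count of 0 in a library allows up to 3 counts, so a low level of these transcripts was not detectable at this depth. The other listed genes that were not tested were UPP2, CMPK2 and SLC28A1. Of the 33, 1 rose and 2 fell in Hs578T, beside 3.64% of all genes higher and 3.86% lower, and 0 rose and 3 fell in MDA-MB-231, beside 1.97% and 2.65%. The median log2 fold changes of the 33 were -0.11 and -0.05.

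RRM2, the small subunit of ribonucleotide reductase, which makes deoxynucleotides, fell in both lines. It was at 191, 189 and 250 CPM in Hs578T CD44 WT and 149, 128 and 145 CPM in Hs578T CD44 KO, with no overlap. The log2 fold change was -0.58 (SE 0.119, adjusted p = 0.00389). In MDA-MB-231 it was at 456, 372 and 398 CPM against 290, 265 and 239 CPM, also without overlap (log2 fold change -0.63, SE 0.118, adjusted p = 0.00332). The changes differed by 0.04 (95% interval -0.31 to 0.40). These calls were not firm: they were lost in 4 of 12 fits with 1 library left out in Hs578T (highest adjusted p 0.0286, without replicate 3 of CD44 WT or without any of the CD44 KO libraries) and in 3 of 12 for MDA-MB-231 (highest adjusted p 0.0218, without replicate 1 of CD44 WT or without replicate 2 or 3 of CD44 KO).

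RRM1, the large subunit of the same enzyme, fell in MDA-MB-231 from 416, 399 and 432 CPM to 309, 304 and 275 CPM. The groups were well separated, with a log2 fold change of -0.49 (SE 0.0755, adjusted p = 6.64e-04). In Hs578T it was -0.08 (95% interval -0.24 to 0.08), and the difference between the lines did not pass (0.41, SE 0.107, adjusted p = 0.0249). GGH, which trims the glutamate tails of folates, fell in MDA-MB-231 from 55.2, 52.7 and 48.6 CPM to 36.6, 34.9 and 33.3 CPM (log2 fold change -0.58, SE 0.0897, adjusted p = 7.13e-04). In Hs578T its change was -0.08 (95% interval -0.26 to 0.10), and the difference between the lines was 0.50 (adjusted p = 0.0187). With MDA-MB-231 fitted alone, the calls of RRM1, RRM2 and GGH were lost, at adjusted p of 0.0151, 0.0110 and 0.0135.

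SLC29A1, the main equilibrative transporter of nucleosides across the plasma membrane, fell in Hs578T. Its libraries were at 127, 142 and 112 CPM in CD44 WT and 66.3, 57.6 and 69.9 CPM in CD44 KO, a log2 fold change of -0.98 (SE 0.112, adjusted p = 3.11e-05). In MDA-MB-231 the values were 319, 258 and 257 CPM against 320, 322 and 302 CPM, which overlapped through replicate 1 of CD44 WT alone (log2 fold change 0.18, adjusted p = 0.352). Without that library every knockout value was above the controls, and the log2 fold change was 0.29 (adjusted p = 0.0896). SHMT2, the mitochondrial enzyme that feeds one-carbon units into folate, rose in Hs578T from 343, 364 and 372 CPM to 572, 498 and 529 CPM (log2 fold change 0.57, SE 0.105, adjusted p = 0.00181). That call was lost without replicate 1 of CD44 WT or without replicate 1 of CD44 KO (highest adjusted p 0.0141). The MDA-MB-231 libraries of SHMT2 overlapped between the groups, with a log2 fold change of -0.15 (adjusted p = 0.415). The changes of both genes differed between the lines, by -1.15 for SLC29A1 (SE 0.155, adjusted p = 2.14e-04) and by 0.72 for SHMT2 (SE 0.148, adjusted p = 0.00592). These were 1 lower and 1 higher of 33, beside 1.79% and 2.33% of all genes. The SHMT2 difference was lost in 7 of 12 fits that left out 1 library (highest adjusted p 0.0207).

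**Figure D3:**
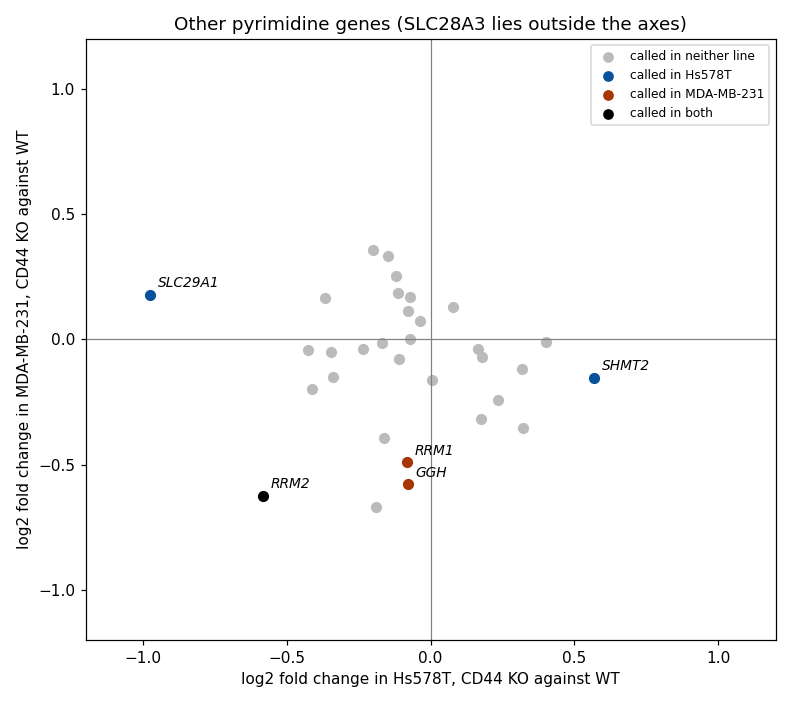
Log2 fold change of CD44 KO against CD44 WT in Hs578T (x axis) and in MDA-MB-231 (y axis) for 32 of the 33 other pyrimidine genes tested. Each point is a gene, coloured by the line in which it passed an adjusted p of 0.01. RRM2 is the point called in both lines. SLC28A3 (-0.66 and -2.78, not called) lies outside the axes.

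The surroundings of DPYD on chromosome 1 were then read from the positions in the table. MIR137HG (ENSG00000225206.9, chr1:97933474-98049863, minus strand), the host transcript of the microRNA miR-137, overlaps the annotated bounds of DPYD on the same strand with 494 shared exonic bases. The Hs578T CD44 WT libraries held 1 count of it together, and the Hs578T CD44 KO libraries 7, 27 and 13. The ratio was 44.7 with a 95% counting interval of 7.63 to 1801. The fitted log2 fold change of 5.01 (SE 0.742) depends on the prior count, and it is given without a test because the gene passed the filter on low counts only with the help of its Hs578T CD44 KO libraries. In MDA-MB-231 it had 35 counts with CD44 and 25 without, all knockout values being below the control values on the CPM scale (fitted log2 fold change -0.67, SE 0.435). MIR137HG was thus near absence in Hs578T CD44 WT. It averaged 1.11 CPM in Hs578T CD44 KO, 0.994 in MDA-MB-231 CD44 WT and 0.638 in MDA-MB-231 CD44 KO. Its Hs578T CD44 KO mean was therefore not below its MDA-MB-231 means, whereas that of DPYD was. Fragments on the shared bases were counted for neither gene. The RefSeq start site of DPYD used for the promoter above is at 97921034, which is 73.97 kb inside the upper bound of the table's gene model and 12.4 kb from the near bound of MIR137HG.

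LINC01776, a long noncoding gene 216 kb beyond DPYD, had 1 count in Hs578T CD44 WT and 10 in Hs578T CD44 KO, and 65 and 84 in MDA-MB-231. The Hs578T ratio of 9.50 had a counting interval of 1.35 to 412, and the gene was not called (adjusted p = 0.102). The next gene on that side, SNX7, an endosomal sorting nexin, was at 31.4, 34.4 and 39.1 CPM in Hs578T CD44 WT and 45.8, 45.4 and 45.4 CPM in Hs578T CD44 KO. Its groups did not overlap, and its log2 fold change of 0.38 (SE 0.0943) missed the threshold (adjusted p = 0.0124). FRRS1, farther out, was not called in either line (log2 fold change 0.25 in Hs578T, adjusted p = 0.339, and 0.69 in MDA-MB-231, adjusted p = 0.0475). On the other side, the 3 nearest tested genes, PTBP2, RPL7P9 and EEF1A1P11, were called in neither line, with log2 fold changes of 0.01 to 0.24 in Hs578T. Inside DPYD, the pseudogene SEC63P1 was not called either (0.45 in Hs578T, adjusted p = 0.436). DPYD-AS1 and DPYD-IT1 had 1 count each over all 12 libraries, and DPYD-AS2 had 0.

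**Figure D4:**
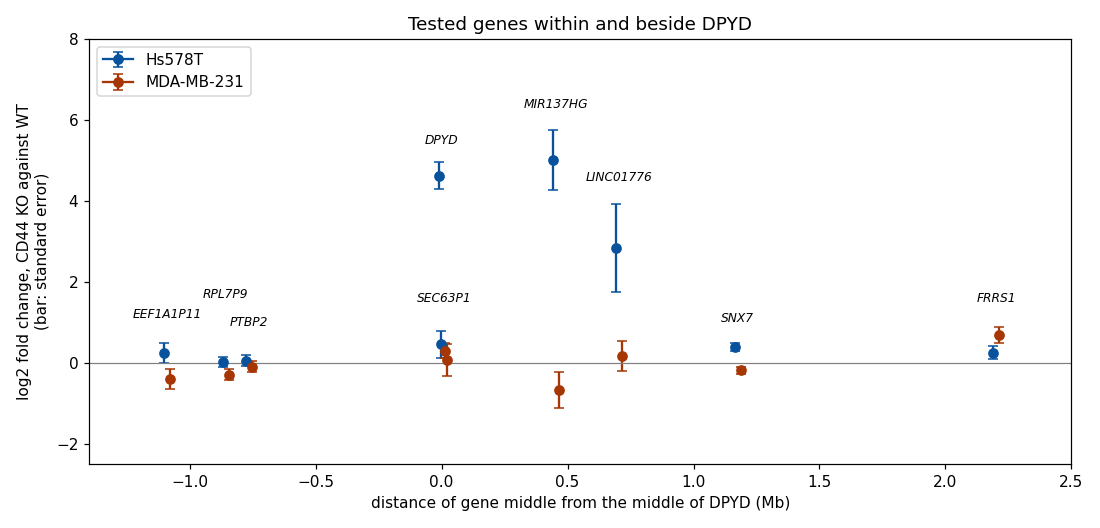
Fitted log2 fold change of CD44 KO against CD44 WT (y axis, bars are standard errors) of the tested genes within and beside DPYD, by the distance of the gene's middle from that of DPYD in Mb (x axis). In Hs578T, DPYD (4.62), MIR137HG (5.01) and LINC01776 (2.84, from 11 counts) lie high and the other genes lie between 0.01 and 0.45. In MDA-MB-231 all values are between -0.67 and 0.69.

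The genes whose pattern was most like that of DPYD were found by the correlation of log2 CPM over the 12 libraries, which fall into 4 groups, so that the values describe a shared order of the groups. The 5 highest were PRSS12 (Pearson r = 0.996), SHISA3 (0.996), LINC02582 (0.995), GNAI1 (0.994) and PRR16 (0.991), none of them on chromosome 1. PRSS12, a secreted serine protease gene, was at 0 to 0.0823 CPM in Hs578T CD44 WT, at 3.69 to 4.87 in Hs578T CD44 KO, at 22.9 to 26.1 in MDA-MB-231 CD44 WT and at 39.7 to 42.3 in MDA-MB-231 CD44 KO. GNAI1, a G protein alpha subunit gene, was at 0.169 to 0.485, 5.62 to 6.14, 16.9 to 24.2 and 22.3 to 24.5 CPM in the same order of groups. LINC02582 was the most abundant, at 4.37 to 5.33, 31.7 to 47.5, 190 to 213 and 198 to 237 CPM. In each of the 5, every Hs578T CD44 KO library lay between the Hs578T CD44 WT libraries and the MDA-MB-231 libraries, as for DPYD. The 5 were picked for their likeness to DPYD over these same libraries, so the shared order follows from the choice and is no separate result.

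**Figure D5:**
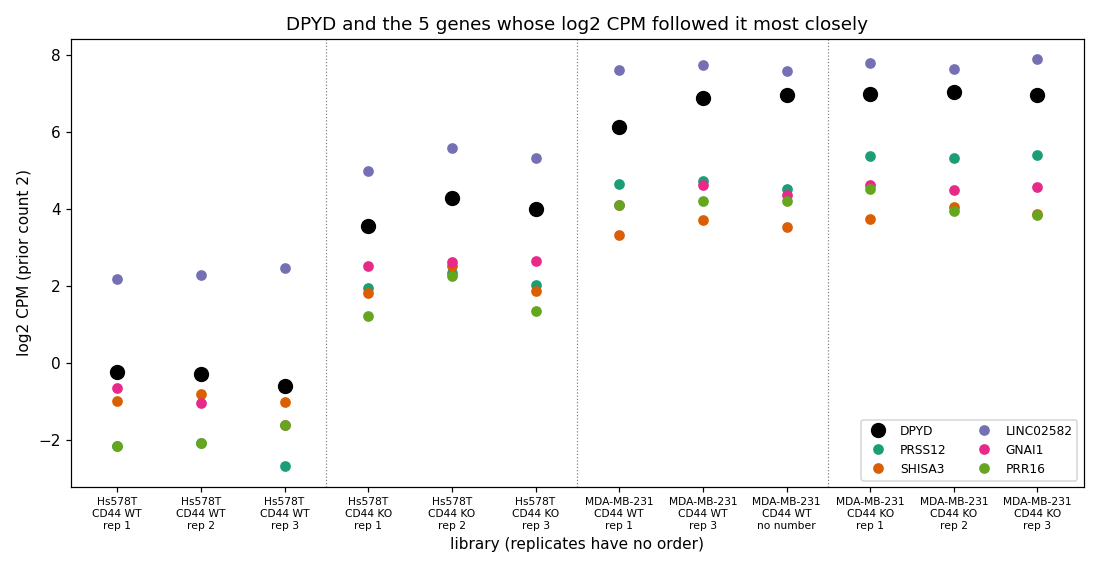
Log2 CPM (y axis, with a prior count of 2) of DPYD (large black points) and of the 5 genes most correlated with it, in each of the 12 libraries (x axis), grouped by line and CD44 status. All 6 genes are lowest in Hs578T CD44 WT, intermediate in Hs578T CD44 KO and highest in MDA-MB-231.

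The control groups of the lines were compared last. This contrast called 61.5% of all genes, and of the 9 genes other than DPYD it called 2, both lower in Hs578T, where 29.4% of all genes were. TYMS was lower by a log2 value of -0.29 (SE 0.0837, adjusted p = 0.00631) and UCK2 by -0.26 (SE 0.0776, adjusted p = 0.00716). Neither call was stable. With library size as the only scaling, which moved the median of all genes from 0.04 to 0.16, 0 of the 9 were called, and across the fits that left out 1 library the count ran from 0 to 2. The TYMS call was lost without replicate 1 or 2 of Hs578T CD44 WT, replicate 3 of Hs578T CD44 KO, or replicate 3 or the unnumbered library of MDA-MB-231 CD44 WT, and the UCK2 call in 9 of 12 such fits, all but those without the unnumbered library of MDA-MB-231 CD44 WT or without replicate 1 or 3 of MDA-MB-231 CD44 KO. DCK was at -0.31 (adjusted p = 0.0460) and was called only without replicate 1 of MDA-MB-231 CD44 WT (-0.47, adjusted p = 3.51e-04). CDA was called only without replicate 3 of Hs578T CD44 WT (0.54, adjusted p = 0.00536). The libraries of the control groups did not overlap for 3 of the 9 genes, TYMP, TYMS and UCK2, beside 71.8% of all genes. All 3 were lower in Hs578T, beside 34.2% of all genes, and 0 were higher, beside 37.7%. Of the 33 wider pathway genes, 25 were called between the lines, beside 61.5% of all genes. In Hs578T 8 were higher, beside 32.2%, and 17 were lower, beside 29.4%. RRM1 (-0.74, adjusted p = 3.89e-07) and SLC29A1 (-1.13, adjusted p = 2.08e-07) were among those lower in Hs578T, and GGH (1.13, adjusted p = 1.48e-08) was higher.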

How the data were processed

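The authors sequenced 12 stranded mRNA libraries as paired reads of 50 bp, used HISAT2 (version 2.1.0) for alignment to GRCh38, and then assigned fragments to GENCODE version 28 genes by strand in featureCounts (version 1.6.2), keeping a mapping quality of at least 10. Fragments on several genes or places were not counted. The deposited values are whole-number counts with no normalization, and totals per library set the precision of low genes such as DPYD in Hs578T CD44 WT.

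Counts of all 12 libraries were fitted together in edgeR (version 4.0.16, R 4.3.3) with TMM factors, 4 group means and the quasi-likelihood test in its legacy form, after the filter on genes given above. Their methods state the length limit as under 300 nt, which was read as at least 300 nt. Adjusted p (Benjamini-Hochberg over 15836 genes) of at most 0.01 was called. CPM use TMM factors, and log2 CPM a prior count of 2. Among the deposited columns, 1 MDA-MB-231 CD44 WT library carried no usable replicate number. Libraries of every group differed by more than sampling noise, so none was merged. The fit was tested on simulated data.

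The genes named are the 10 listed, other pyrimidine genes called in a knockout contrast, the nearest 3 tested genes on each side of DPYD and those overlapping a listed gene, the 5 most correlated with DPYD, CD44, and growth genes. Members and lists were chosen with earlier results of these data known. Alternatives were DESeq2 (version 1.42.0), RLE factors, library size only, no filter, each line alone, the newer quasi-likelihood fit, an adjusted p of 0.05, a replicate block and leaving out each library. Promoters came from RefSeq (GRCh38.p14), and names were matched for 57799 genes.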

Additional observations from a re-analysis of the deposited data

Results flagged for a closer look

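The change with CD44 KO differed between the lines by the test of the difference itself (edgeR quasi-likelihood test, Hs578T minus MDA-MB-231, log2 scale) for CD44 and for 3 other genes. The genes read were CD44, MIR137HG, the 9 listed genes other than DPYD, the 33 wider pathway genes and the 10 growth genes. Of all genes tested, this difference was called for 4.12% (2.33% higher and 1.79% lower). DPYD and the 5 genes chosen for their likeness to it were left out, since the choice used this contrast. CD44 differed by -0.81 (adjusted p = 0.00198), with all knockout libraries below the controls in both lines. SLC29A1 differed by -1.15 (adjusted p = 2.14e-04), with all 3 Hs578T knockout libraries below the controls. Without replicate 1 of MDA-MB-231 CD44 WT, the library through which the MDA-MB-231 groups overlapped, the difference was -1.26 (adjusted p = 4.80e-05). SHMT2 differed by 0.72 (adjusted p = 0.00592), and this call was lost in 7 of 12 fits that left out 1 library (adjusted p up to 0.0207). CCNA2 differed by -0.55 (adjusted p = 0.00976), close to the threshold of 0.01. The fitted difference of MIR137HG was 5.68, which rests on 1 count in Hs578T CD44 WT and is a description only, as above. Dixon's check for an outlying library was not applied to these groups of 3.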

How the results depend on the processing

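The limits include the low counts of DPYD in Hs578T CD44 WT, the 3 libraries per group and the unstated origin of the cultures, and small changes of the other 9 genes could not be told from the spread. The fitted DPYD change in Hs578T ran from 4.60 to 4.65 over the alternatives and from 4.424 to 4.796 without 1 library. DPYD was chosen for this rise in the same libraries, so these ranges are a description and no support for it. The counts of called genes that follow have unlike totals. The main fit tested 15836 genes and the fit without the filter 29625, so a larger count there need not be a larger share. With a line alone, 14655 genes were tested in Hs578T and 13609 in MDA-MB-231. In Hs578T, called genes rose from 1189 to 1984 without the filter and 2253 at an adjusted p of 0.05, and the wider pathway count from 3 to 6 without the filter, 5 with the line alone and 7 at 0.05, where 1 of the 9 listed genes was called. In MDA-MB-231, 731 became 1370 without the filter, 315 with the line alone, 1138 with DESeq2 and 1518 at 0.05, the wider pathway count of 3 became 0 with the line alone and 5 with DESeq2 or at 0.05, and 1 listed gene was called with DESeq2 or at 0.05. For the difference between the lines, 653 became 1373 without the filter, 1179 with DESeq2 and 1670 at 0.05, the wider count of 2 became 5 with DESeq2 and 6 at 0.05, and 1 listed gene was called with library size only, without the filter, with DESeq2 or at 0.05. Between the control groups, the 2 listed genes became 1 with RLE factors, 0 with library size only or without the filter, and 4 at 0.05. For the difference, the wider count became 1 with SHMT2 lost, without replicate 1 or 2 of Hs578T CD44 WT, replicate 1 or 3 of Hs578T CD44 KO, the unnumbered library of MDA-MB-231 CD44 WT, or replicate 2 or 3 of MDA-MB-231 CD44 KO. Without 1 library, called genes ran from 605 to 1685 in Hs578T, 355 to 763 in MDA-MB-231 and 396 to 804 for the difference, the wider counts from 1 to 5 in Hs578T and 1 to 2 for the difference, and the listed genes from 0 to 2 between the control groups. Counts of called genes moved by over 1.5 times without replicate 1 or 2 of Hs578T CD44 WT or any Hs578T CD44 KO library in Hs578T, without replicate 3 of MDA-MB-231 CD44 WT or any MDA-MB-231 CD44 KO library in MDA-MB-231, and for the difference without replicate 1 or 2 of Hs578T CD44 WT, replicate 2 or 3 of Hs578T CD44 KO or replicate 2 of MDA-MB-231 CD44 KO. The wider count in Hs578T became 1 without replicate 1 of Hs578T CD44 KO and 5 without replicate 1 of MDA-MB-231 CD44 WT.

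Some values near 0 changed sign. Without 1 library these were DHODH in Hs578T (-0.0947 to 0.0425), DUT in Hs578T (-0.0949 to 0.000283), DCK in Hs578T (-0.122 to 0.000899), the difference of RRM2 (-0.0419 to 0.186) and of DUT (-0.00984 to 0.124), and between the control groups DHODH (-0.0369 to 0.161), DUT (-0.128 to 0.00603) and SHMT2 (-0.187 to 0.00702). With library size only, DUT (0.0449) and SHMT2 (0.0293) turned between the control groups. The cause was not tested.

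Replicate numbers of the sample titles did not pair the libraries: same-numbered libraries of CD44 WT and CD44 KO had correlations of their deviations of -0.0566, 0.0222 and -0.0957 in Hs578T and of 0.00793 and 0.164 in MDA-MB-231. The column names carry other, running numbers. In Hs578T their order sets CD44 WT replicates 1, 2 and 3 beside CD44 KO replicates 2, 3 and 1. Those pairs gave 0.0315, 0.101 and 0.134, the highest of that line. In MDA-MB-231 that order keeps like numbers together. What the column numbers stand for is not stated in the labels. A block on them was not fitted, and the replicate block used the title numbers. With the replicate block, which left out the unnumbered library, MDA-MB-231 had 436 genes called and 1 in the wider pathway (RRM1 at adjusted p = 0.0106 and RRM2 at 0.0200 were not called), the difference had 1 in the wider pathway (SHMT2 at 0.0147 was not called), the control groups had 0 of the 9 listed genes, and DHODH turned to -0.0264 between the control groups.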
